A study of Mus musculus with 8 samples.

Results

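The NF-kB genes described here are 30 of the 54838 gene rows of the deposited count tables. They were chosen by symbol for their known place in the pathway, with cytokines left out, and all 30 were found in both tables. They comprise 5 NF-kB subunits, 5 inhibitors of the IkB family, 3 subunits of the IkB kinase (IKK), 6 signal adaptors and receptors, 3 genes of negative feedback, 2 adhesion molecules and 6 other targets. Sequencing of polyadenylated RNA was done on mouse embryonic fibroblasts, connective tissue cells grown from embryos, in 4 groups of 2 libraries. The n-Sen group held cells made senescent with nutlin3a, which stabilises p53 by blocking its ubiquitin ligase MDM2. A hold in G2 by RO3306, which inhibits the kinase CDK1, came first. The cells were then kept in nutlin3a alone for 48 h and afterwards in 100 nM of BI-2536, an inhibitor of the mitotic kinase PLK1 given against cells still dividing, for 14 days. Proliferating fibroblasts were their control. A further pair of groups, written here as alkaline medium and control medium, were n-Sen cells given the same induction and BI-2536 and then kept for 24 h in HEPES-buffered medium of adjusted pH, alkaline in the one and ordinary in the other. The pH values, the mouse strain and the number of embryos behind the cultures are not given in the sources used here. Nothing in the labels says that the 2 libraries of a group came from separate cultures, so p-values measure only the spread between these libraries, which may be technical. The n-Sen and proliferating cells also differ in time in culture and in exposure to BI-2536, which cannot be told apart from senescence here.

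NF-kB is a family of dimeric transcription factors that rest in the cytoplasm bound to IkB proteins. Signals from cytokine and pattern-recognition receptors run through TRAF adaptors and ubiquitin ligases to IKK, which marks IkB for destruction and frees the dimer to enter the nucleus. Among the genes it switches on are its own inhibitors, so that the response shuts itself off. In senescent fibroblasts NF-kB is known for driving the secreted inflammatory cytokines. Its activity is set mainly by protein degradation and movement into the nucleus, neither of which transcript counts measure.

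The feedback genes are known to carry sites for the factor near their own start, and the stretches below are shown because these genes went different ways in n-Sen cells. RefSeq promoter windows (GRCm38.p6, from 250 bases before to 50 bases after a gene start) were available for 23 members, in 31 windows. Those of Nfkb1, Relb, Nfkbiz, Ikbkb, Ripk2, Vcam1 and Cd83 were not. The kappa B consensus was found on at least 1 strand in windows of 9 of the 23 members (39.1%), against 5.14% of all 27025 genes with a window. Because the members were chosen as known NF-kB genes, a larger share among them was likely in advance, and the shares are a description only. The 9 are Nfkbia, Nfkbie, Bcl3, Nfkb2, Rel, Tnfaip3, Tnip1, Irf1 and Sod2. Of the simpler patterns, all searched on both strands and overlapping each other and the consensus, GGG and TTCC with any 3 bases between them were in 8 of the 23 (34.8%) against 6.31% of all genes, GGG and TTTCC with any 2 bases between in 5 (21.7%) against 1.89%, and the loose form of GGG and CC with any 5 bases between in 19 (82.6%) against 53.5%. Each stretch runs 5′ to 3′ on the gene's strand over the 150 bases before the RefSeq start, with bases that match the consensus on either strand in capitals. Nfkbia lies at chr12:55492648-55492797 (minus strand), Nfkbie at chr17:45555550-45555699 (plus), Tnfaip3 at chr10:19015411-19015560 (minus), Tnip1 at chr11:54962941-54963090 (minus), Rel at chr11:23770970-23771119 (minus), Irf1 at chr11:53769864-53770013 (plus) and Icam1 at chr9:21015790-21015939 (plus).
Nfkbia: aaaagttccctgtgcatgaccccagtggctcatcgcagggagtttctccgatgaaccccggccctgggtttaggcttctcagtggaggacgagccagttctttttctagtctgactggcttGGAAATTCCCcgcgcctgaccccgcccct
Nfkbie: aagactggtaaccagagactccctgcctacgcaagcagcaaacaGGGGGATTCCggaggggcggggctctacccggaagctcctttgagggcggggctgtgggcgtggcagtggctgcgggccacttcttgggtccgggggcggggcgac
Tnfaip3: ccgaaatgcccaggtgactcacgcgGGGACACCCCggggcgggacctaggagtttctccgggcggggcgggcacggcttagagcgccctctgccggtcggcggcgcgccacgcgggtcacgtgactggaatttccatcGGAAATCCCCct
Tnip1: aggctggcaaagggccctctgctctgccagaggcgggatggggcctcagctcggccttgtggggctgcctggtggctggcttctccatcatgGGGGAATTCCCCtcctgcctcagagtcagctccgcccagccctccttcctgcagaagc
Rel: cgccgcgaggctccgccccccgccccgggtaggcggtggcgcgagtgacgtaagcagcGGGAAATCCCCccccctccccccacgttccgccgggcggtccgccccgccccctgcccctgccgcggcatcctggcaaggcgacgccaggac
Irf1: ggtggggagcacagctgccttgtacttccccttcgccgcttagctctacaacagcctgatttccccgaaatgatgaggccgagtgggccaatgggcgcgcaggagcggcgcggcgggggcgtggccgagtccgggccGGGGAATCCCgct
Icam1: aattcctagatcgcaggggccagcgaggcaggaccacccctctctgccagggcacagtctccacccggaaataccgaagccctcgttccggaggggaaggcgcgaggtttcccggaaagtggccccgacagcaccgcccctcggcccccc
The match began 29 bases before the start in Nfkbia, 106 in Nfkbie, 58 in Tnip1, 92 in Rel and 13 in Irf1, and Tnfaip3 held matches at 125 and 12 bases. The Tnip1 match, GGGGAATTCCCC, reads the same on both strands. Icam1, shown because it changed most of the members with counts in all 8 libraries, held no full match to the consensus in its window. The window does hold tggaaattcc, which departs from the consensus only at its first base, where a G is required. The printed stretch of Icam1 begins inside this near match and so cuts it. A match is a description of the letters and not evidence of binding.

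Libraries held between 40608517 and 54183060 counts. Levels are counts scaled to a common library size (CPM), with library sizes scaled by the trimmed mean of M-values (TMM), and a gene was called at an adjusted p under 0.05 in edgeR's quasi-likelihood test. Of 19264 genes tested in n-Sen against proliferating cells, 34.0% were called higher and 33.1% lower. In alkaline against control medium, 9.58% of 19129 were called higher and 10.4% lower. With 2 libraries against 2, a permutation test of a single gene cannot go below a two-sided p of 0.333, so all calls rest on the fit across genes. Fibroblast and macrophage markers were both detected and both moved with the groups. All 13 fibroblast markers had counts in every group, and they summed to 18149 to 18341 CPM in n-Sen cells and 12116 to 12366 CPM in proliferating cells, with 9 of 13 called higher and 4 lower. In alkaline medium they summed to 18864 to 18995 CPM, against 16586 to 17948 CPM in control medium, though 9 of 13 were called lower there and 3 higher, with a median log2 fold change of -0.19. All 20 macrophage markers had counts in every group, and their level summed to 1251 to 1320 CPM in n-Sen cells and 57.7 to 64.6 CPM in proliferating cells, with 20 of 20 called higher. Lyz2, the macrophage lysozyme, was the most abundant of them at 731 ± 27.0 CPM in n-Sen cells and 24.9 ± 3.62 CPM in proliferating cells (SD, n = 2 each). In alkaline medium their sum was 1103 to 1110 CPM, against 1214 to 1285 CPM in control medium, with 12 of 20 called lower and 0 higher (also 0 higher at an unadjusted p under 0.05). Of 14 markers of other leukocytes, 9 to 12 were at 0 in each group, and their summed level did not pass 0.568 CPM in any library. Endothelial markers summed to 7.83 to 9.43 CPM in n-Sen and 27.4 to 34.1 CPM in proliferating cells. Epithelial and mesothelial markers summed to 10.8 to 11.0 CPM in n-Sen and 94.5 to 98.9 CPM in proliferating cells.

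The members did not show a common rise in n-Sen cells. In n-Sen cells the other pathway and target genes, given below, had larger shares called higher and smaller shares called lower than all genes tested. Those lists, like the members, were chosen with results of these data known, so the shares are a description only. Of 28 members tested, 5 were called higher (17.9%), which were Icam1, Cd83, Ikbkg, Nfkbie and Tnip1, and 10 were called lower (35.7%), which were Nfkb1, Nfkb2, Rel, Nfkbiz, Traf1, Traf2, Tnfaip3, Vcam1, Tnfaip2 and Irf1, while 13 were not called. Over all genes tested the shares were 34.0% higher and 33.1% lower. Lcn2 and Saa3 had too few counts to be tested. Cd83 and Traf1 passed the low-count filter only with libraries of the group where they are high. The filter thus favoured the direction of these 2 calls, which are a description only. The median log2 fold change of the members was -0.04, against 0.00149 over all genes tested, and it ran from -0.06 without n-Sen replicate 1 to 0.03 without proliferating replicate 1. The member median is the same with Cd83, which had 0 counts in proliferating cells, placed at its lower bound. The changes spanned a wide range, with 5 called members past a log2 fold change of 1 in either direction.

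**Figure D1:**
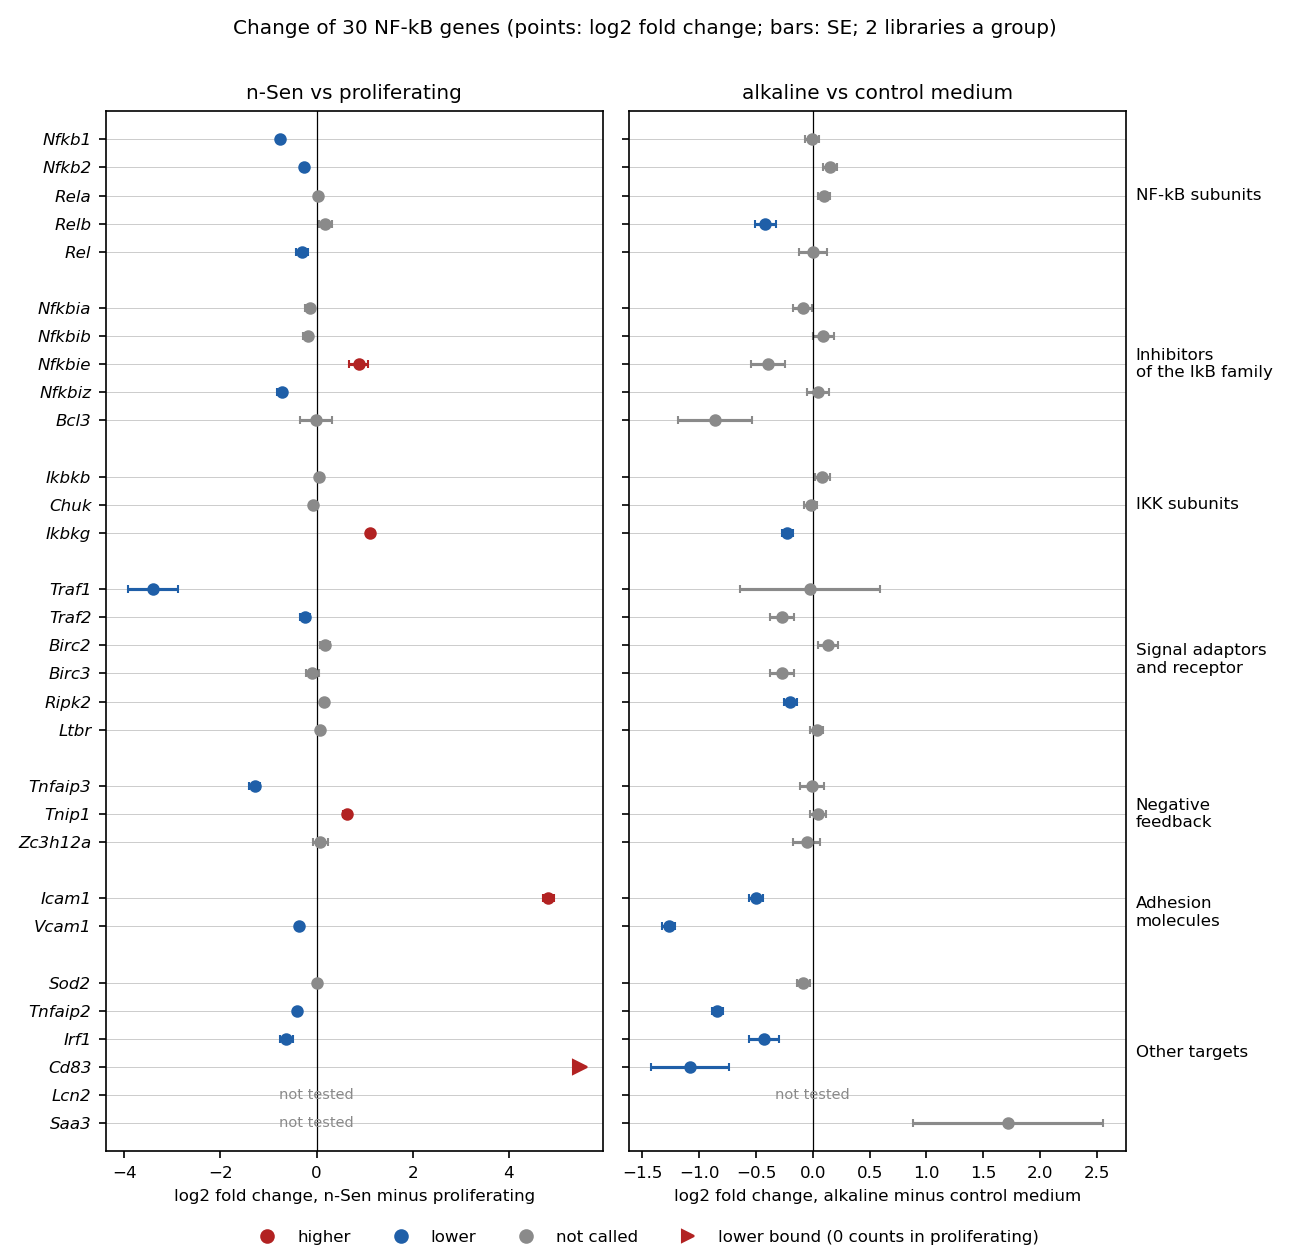
Log2 fold change (horizontal axes) of each of the 30 NF-kB genes, grouped by role, in n-Sen against proliferating cells on the left and in alkaline against control medium on the right, with bars for the SE and colours for the call. Icam1 and Cd83 stand far to the right in n-Sen cells and Traf1 far to the left at -3.40, while all 8 called members in alkaline medium lie left of 0.

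The transcripts of the factor itself were lower or not called in n-Sen cells. Nfkb1, which encodes the precursor of p50, had 45.1 and 44.5 CPM in the n-Sen libraries, against 76.9 and 75.9 CPM in the proliferating libraries, a log2 fold change of -0.77 ± 0.06 (SE, adjusted p = 8.45e-09). The gap between the groups was far wider than the spread within either. Nfkb2, precursor of the p52 subunit of the noncanonical branch, had 45.8 and 43.6 CPM in n-Sen, against 55.6 and 51.9 CPM in proliferating cells, a log2 fold change of -0.26 ± 0.07 (adjusted p = 0.00295). Rel, the subunit best known from lymphocytes, had 9.30 and 9.72 CPM in n-Sen and 12.0 and 11.6 CPM in proliferating cells, with a log2 fold change of -0.31 ± 0.12 (adjusted p = 0.0326). This call was lost when any of the 4 libraries was left out. It was also lost without the low-count filter (adjusted p = 0.0723) and in DESeq2 (0.155). Rela, the p65 subunit with the main activation domain, had 69.1 and 64.4 CPM in n-Sen and 70.2 and 60.8 CPM in proliferating cells. Its groups overlapped, with a log2 fold change of 0.03 (95% interval -0.11 to 0.17). Relb, partner of p52, had 14.1 and 12.0 CPM in n-Sen and 10.5 and 12.4 CPM in proliferating cells, which overlapped as well (0.18, interval -0.07 to 0.43).

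Scaled by exon length (RPKM), the same order of subunits held at both ends in every group, with Rela highest and Rel lowest. Rela stood at 21.7 ± 1.07 RPKM in n-Sen cells and 21.3 ± 2.18 RPKM in proliferating cells, and Nfkb2 followed at 9.75 ± 0.340 and 11.7 ± 0.558 RPKM in the same groups. Nfkb1 and Relb came next in n-Sen cells at 3.72 ± 0.0372 and 3.36 ± 0.380 RPKM, a gap of 0.36 RPKM that is within the larger SD, whereas in proliferating cells Nfkb1 stood at 6.34 ± 0.0580 RPKM and Relb at 2.95 ± 0.356 RPKM. Rel was at 1.27 ± 0.0395 RPKM in n-Sen and 1.58 ± 0.0327 RPKM in proliferating cells. The lengths join the exons of all annotated transcripts of a gene, so a gene with long rare exons is set too low on this scale.

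**Figure D2:**
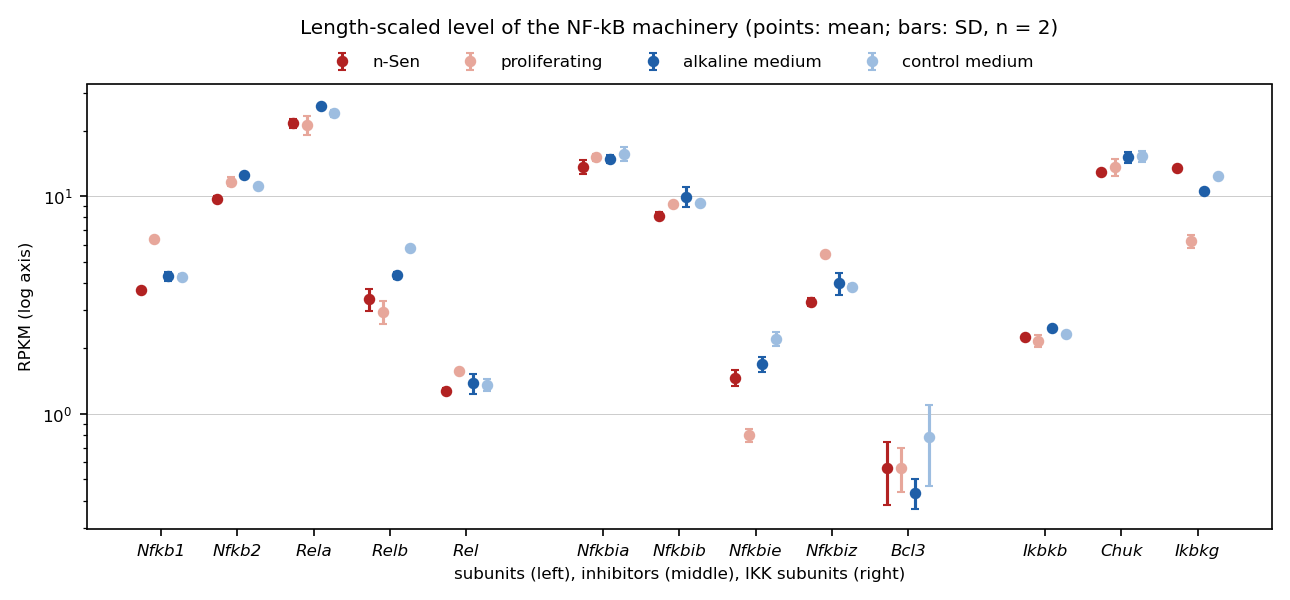
Level in RPKM (vertical log axis) of the NF-kB subunits, IkB-family inhibitors and IKK subunits in n-Sen, proliferating, alkaline-medium and control-medium cells, as mean and SD of 2 libraries each. Rela is the highest subunit in all 4 groups, Nfkb1 stands apart in proliferating cells, and Ikbkg is lowest in proliferating cells at 6.23 RPKM.

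The inhibitors went apart. Nfkbia, which encodes the rapidly resynthesised IkB-alpha, had 20.8 and 23.2 CPM in n-Sen and 25.1 and 23.6 CPM in proliferating cells and was not called (log2 fold change -0.14, interval -0.32 to 0.04). Nfkbib, for IkB-beta, had 17.3 and 18.2 CPM in n-Sen and 20.1 in both proliferating libraries, with a log2 fold change of -0.18 (interval -0.37 to 0.01). It was not called (adjusted p = 0.107). Nfkbie, for IkB-epsilon, was the inhibitor that rose. Its level was 4.20 and 4.74 CPM in n-Sen, against 2.30 and 2.55 CPM in proliferating cells, a log2 fold change of 0.88 ± 0.20 (adjusted p = 0.000807). Nfkbiz, a nuclear IkB that helps to switch on late target genes, fell to 17.0 and 16.0 CPM in n-Sen, against 26.8 and 27.5 CPM in proliferating cells (log2 fold change -0.72 ± 0.09, adjusted p = 1.96e-06). Bcl3, the other nuclear member, was low and its groups overlapped, with 1.71 and 1.07 CPM in n-Sen and 1.63 and 1.17 CPM in proliferating cells.

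Among the IKK subunits only the regulatory one was called. Ikbkg, which encodes the scaffold NEMO, had 108 and 111 CPM in n-Sen, against 48.1 and 52.9 CPM in proliferating cells, a log2 fold change of 1.12 ± 0.07 (adjusted p = 7.93e-11). Its exons overlap those of G6pdx on the opposite strand, and G6pdx, which encodes glucose-6-phosphate dehydrogenase, moved the other way with 53.8 and 53.3 CPM in n-Sen and 110 and 96.1 CPM in proliferating cells. The Ikbkg row held fractional counts in 7 of the 8 libraries. Whether counting used strand is not stated in the sources used here, and reads of the overlapping exons may have been mixed. The kinase subunits were not called, with Ikbkb at 42.8 and 42.9 CPM in n-Sen and 43.1 and 39.6 CPM in proliferating cells (log2 fold change 0.05, interval -0.09 to 0.20). Chuk was at 65.8 CPM in both n-Sen libraries and at 65.0 and 73.4 CPM in proliferating cells (log2 fold change -0.07, interval -0.21 to 0.06).

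Of the adaptors, Traf1 changed most. This TRAF, induced by NF-kB in activated lymphocytes, was low throughout and fell to 0.0429 and 0.333 CPM in n-Sen, against 1.75 and 2.41 CPM in proliferating cells (log2 fold change -3.40 ± 0.51, adjusted p = 1.51e-05). These levels rest on 20 counts in the n-Sen group, 2 in replicate 1 and 18 in replicate 2, and 194 in the proliferating group. Traf1 needed the proliferating libraries, where it is high, to pass the low-count filter, so its p-value is a description only. The log2 fold change was -2.63 without n-Sen replicate 1 and -5.52 without n-Sen replicate 2, and Traf1 was called lower in both. Traf2, the adaptor that carries cIAP ligases to TNF receptors, had 17.4 and 17.5 CPM in n-Sen and 22.7 and 19.0 CPM in proliferating cells (log2 fold change -0.25 ± 0.10, adjusted p = 0.0411). Its log2 fold change was -0.38 without proliferating replicate 2 and -0.12 without proliferating replicate 1. Its call was lost with median-of-ratios scaling (adjusted p = 0.0506) and without the low-count filter (0.0699). The fit of all 8 libraries (0.0564) and DESeq2 (0.154) also lost it. So did leaving out proliferating replicate 1 or either n-Sen replicate. The cIAP genes Birc2 and Birc3, the lymphotoxin beta receptor Ltbr, and Ripk2, the kinase that NOD receptors use, were not called, with log2 fold changes between -0.09 for Birc3 and 0.17 for Birc2. Ripk2 was close to the threshold (log2 fold change 0.15 ± 0.06, adjusted p = 0.0517) and passed it in 3 of the alternatives, where its adjusted p ran from 0.0301 to 0.221 over all of them. Ltbr had the highest length-scaled level of the 30 genes in n-Sen (37.0 ± 1.60 RPKM) and in proliferating cells (35.4 ± 0.635 RPKM).

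The feedback genes that act together on ubiquitin chains moved in opposite directions. Tnfaip3, which encodes the deubiquitinase A20, fell to 9.26 and 9.02 CPM in n-Sen, against 21.1 and 23.6 CPM in proliferating cells (log2 fold change -1.29 ± 0.11, adjusted p = 1.14e-08). Tnip1, whose product binds A20, rose to 34.8 and 33.0 CPM in n-Sen, against 22.1 and 21.5 CPM in proliferating cells (log2 fold change 0.64 ± 0.08, adjusted p = 2.94e-06). Both carry the kappa B matches printed above. Zc3h12a, for the ribonuclease Regnase that destroys inflammatory transcripts, had overlapping groups at 9.32 and 7.07 CPM in n-Sen and 8.33 and 7.23 CPM in proliferating cells.

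The targets held both the largest rise and several falls. Icam1 (chr9:21015985-21028817, plus strand), which encodes a ligand of leukocyte integrins, had 46.6 and 49.3 CPM in n-Sen, against 1.58 and 1.79 CPM in proliferating cells. That is a 28.3-fold difference, a log2 fold change of 4.82 ± 0.12 (adjusted p = 7.83e-16), and far outside the spread of either group. The antisense gene Gm47079, whose exons overlap those of Icam1, moved with it at 5.51 and 5.57 CPM in n-Sen and 0.240 and 0.279 CPM in proliferating cells, and its reads may not be separated from those of Icam1. Vcam1 (chr3:116109949-116129688, minus strand), an integrin ligand like Icam1, went the other way, with 127 and 135 CPM in n-Sen and 173 and 165 CPM in proliferating cells (log2 fold change -0.37 ± 0.06, adjusted p = 1.53e-05). Cd83, a surface protein of mature dendritic cells and activated leukocytes, had 1.67 and 1.26 CPM in n-Sen, from 78 and 68 counts, and 0 counts in both proliferating libraries. Against a floor of 3 counts over the proliferating group it was at least 44.9-fold higher (adjusted p = 3.63e-07). Cd83 passed the low-count filter only through the n-Sen libraries, so this p-value is a description and no support for the rise. Macrophages express both Icam1 and Cd83, and the macrophage markers given above rose in the same libraries by a median log2 fold change of 4.22. Their part in these results was not tested. In bulk RNA, a change in the number of cells of a type and in RNA per cell cannot be told apart.

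Of the other targets, Tnfaip2, a TNF-induced gene linked to membrane nanotubes, fell to 107 and 104 CPM in n-Sen, against 139 and 140 CPM in proliferating cells (log2 fold change -0.40 ± 0.05, adjusted p = 3.63e-06). Irf1, an interferon-induced transcription factor, fell to 6.22 and 6.65 CPM in n-Sen, against 10.7 and 9.26 CPM in proliferating cells (log2 fold change -0.63 ± 0.14, adjusted p = 0.000679). Sod2, the mitochondrial superoxide dismutase, had overlapping groups, with 50.2 and 53.9 CPM in n-Sen and 51.7 and 51.3 CPM in proliferating cells (log2 fold change 0.02, interval -0.12 to 0.15). The secreted acute-phase genes had few counts. Lcn2, which binds iron-carrying siderophores, had 8 counts in n-Sen and 0 in proliferating cells, and Saa3, a serum amyloid, had 34 counts in n-Sen and 4 in proliferating cells.

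**Figure D3:**
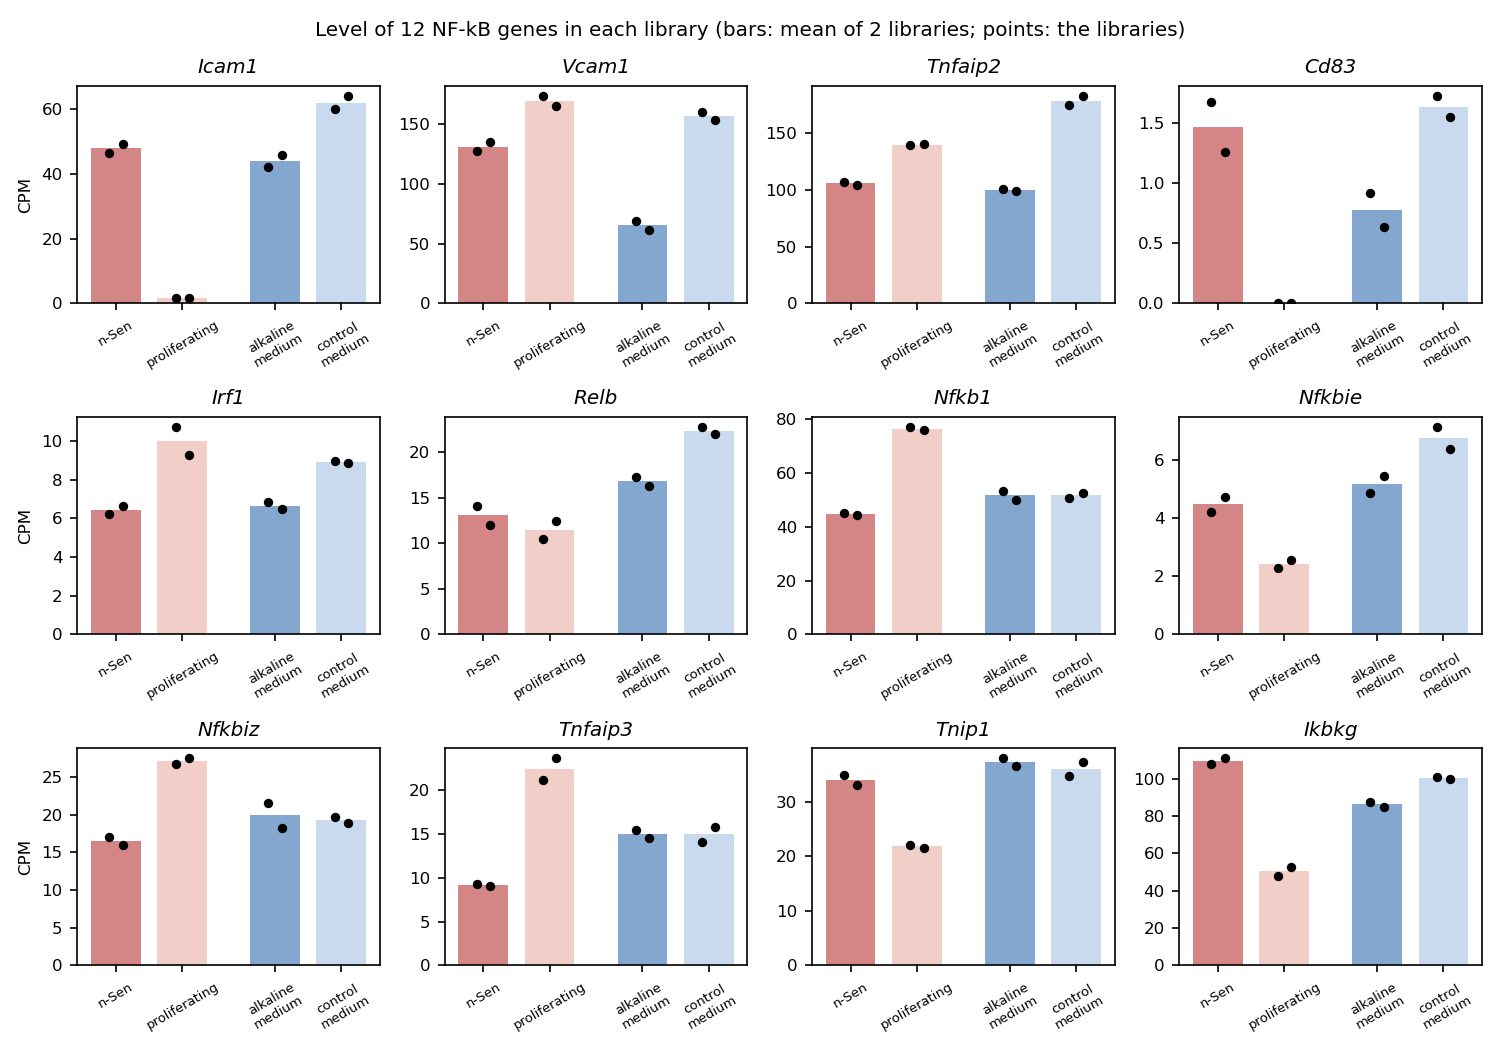
Level in CPM (vertical axes, from 0) of 12 NF-kB genes in n-Sen, proliferating, alkaline-medium and control-medium cells, with bars for the mean of 2 libraries and points for the libraries. Icam1 is near 0 only in proliferating cells, where its libraries held 1.58 and 1.79 CPM, and Vcam1 and Tnfaip2 are lowest in alkaline medium.

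In alkaline medium the members that moved were all lower. Of 29 members tested, 8 were called lower (27.6%), which were Vcam1, Cd83, Tnfaip2, Icam1, Irf1, Relb, Ikbkg and Ripk2, and 21 were not called. Over all genes tested 10.4% were lower and 9.58% higher. None was called higher in edgeR, with 1 member higher at an unadjusted p under 0.05 and 0 called higher in DESeq2. DESeq2 called 6 lower. The median log2 fold change of the members was -0.05, against -0.00931 over all genes tested, and was between -0.11 and -0.08 with any 1 library left out. Of the 8, 3 had been called higher in n-Sen against proliferating cells (Icam1, Cd83 and Ikbkg), 3 lower (Vcam1, Tnfaip2 and Irf1) and 2 not called (Relb and Ripk2).

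The adhesion molecules and Tnfaip2 had the smallest p-values of the members. Vcam1 fell to 68.6 and 61.7 CPM in alkaline medium, against 160 and 153 CPM in control medium (log2 fold change -1.27 ± 0.06, adjusted p = 8.02e-14). The gap between the groups was far larger than the spread within them. The overlapping antisense gene Gm43109 had 3.86 and 4.27 CPM in alkaline and 8.70 and 8.20 CPM in control medium. Tnfaip2 (chr12:111442469-111455018, plus strand) fell to 101 and 98.6 CPM in alkaline medium, against 174 and 182 CPM in control medium (log2 fold change -0.84 ± 0.05, adjusted p = 8.27e-12). Its antisense neighbour Gm40578, with overlapping exons, had 4.16 and 4.61 CPM in alkaline and 6.69 and 7.64 CPM in control medium. Icam1 fell to 42.3 and 45.8 CPM in alkaline medium, against 60.0 and 64.0 CPM in control medium (log2 fold change -0.50 ± 0.06, adjusted p = 3.31e-06). These falls are relative to control medium. The n-Sen libraries, set beside them with no test, had 107 and 104 CPM of Tnfaip2 and 46.6 and 49.3 CPM of Icam1, near the alkaline levels. Vcam1 differed, since its 127 and 135 CPM in n-Sen were well above its alkaline level.

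Cd83 and Irf1 were called on thinner evidence. Cd83 had 0.916 and 0.636 CPM in alkaline and 1.72 and 1.55 CPM in control medium, from 65 counts in the alkaline group and 161 in the control group (log2 fold change -1.08 ± 0.34, adjusted p = 0.0260). The call was lost without control-medium replicate 1 (adjusted p = 0.124), without alkaline replicate 2 (0.155) and in DESeq2 (0.137), within a range of 0.00722 to 0.155 over all alternatives. Irf1 had 6.84 and 6.46 CPM in alkaline and 8.98 and 8.88 CPM in control medium (log2 fold change -0.43 ± 0.13, adjusted p = 0.0209). Its call was lost without control-medium replicate 1 (0.0703), without control-medium replicate 2 (0.0570), without alkaline replicate 2 (0.0955) and in DESeq2 (0.119), within a range of 0.0130 to 0.119. The macrophage markers, 12 of 20 of them lower in alkaline medium, had a median log2 fold change of -0.31 beside the falls of fibroblast markers given above, and Lyz2 among them was not called, at 676 ± 1.67 CPM in alkaline and 702 ± 42.6 CPM in control medium (SD, n = 2 each). The part of either marker list in the falls of Icam1, Cd83 and the other members was not tested. Sod2 was at 53.0 and 50.6 CPM in alkaline and 55.2 and 53.9 CPM in control medium and was not called. Saa3 had 22 and 18 counts in alkaline medium and 0 and 14 in control medium (log2 fold change 1.72 ± 0.84, adjusted p = 0.166). Without control-medium replicate 2 the control library left held 0 counts, and the log2 fold change of 7.41 there is set by that 0. Without control-medium replicate 1 it was 0.75. Lcn2 had 0 counts in alkaline and 4 in control medium.

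Of the subunits only Relb was called. It fell to 17.3 and 16.3 CPM in alkaline medium, against 22.7 and 22.0 CPM in control medium (log2 fold change -0.42 ± 0.09, adjusted p = 0.00154). Its noncanonical partner Nfkb2 was slightly higher and not called, at 57.0 and 57.4 CPM in alkaline and 51.6 and 50.9 CPM in control medium (log2 fold change 0.15 ± 0.06, adjusted p = 0.0818). Nfkb1 had 53.4 and 50.1 CPM in alkaline and 50.7 and 52.6 CPM in control medium, so that its groups overlapped (log2 fold change -0.01, interval -0.13 to 0.12). Rela was at 78.7 and 80.7 CPM in alkaline and at 72.0 and 76.2 CPM in control medium (log2 fold change 0.10, interval -0.01 to 0.21). Rel overlapped between the groups, with 11.0 and 9.52 CPM in alkaline and 9.72 and 10.7 CPM in control medium. On the length scale Relb stood at 4.33 ± 0.177 RPKM in alkaline medium, level with Nfkb1 at 4.29 ± 0.191 RPKM, while in control medium Relb was at 5.76 ± 0.130 RPKM and Nfkb1 at 4.28 ± 0.110 RPKM.

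No inhibitor was called in the reported edgeR fit, with 0 higher and 2 lower at an unadjusted p under 0.05. Nfkbia had 24.5 and 23.1 CPM in alkaline and 24.0 and 26.5 CPM in control medium (log2 fold change -0.09, interval -0.26 to 0.08). Nfkbib had 20.0 and 23.2 CPM in alkaline and 20.2 in both control-medium libraries. Nfkbiz overlapped, at 21.6 and 18.3 CPM in alkaline and 19.7 and 18.9 CPM in control medium. Those at an unadjusted p under 0.05 were Nfkbie and Bcl3. Nfkbie had 4.85 and 5.46 CPM in alkaline and 7.12 and 6.39 CPM in control medium (log2 fold change -0.40 ± 0.15, adjusted p = 0.0702). Bcl3 had 1.19 and 0.955 CPM in alkaline and 2.48 and 1.39 CPM in control medium (log2 fold change -0.86 ± 0.33, adjusted p = 0.0671). It was called lower without the low-count filter (adjusted p = 0.0235) and with a replicate block (0.0477), and not in DESeq2 (0.251). Its log2 fold change was -0.38 without control-medium replicate 1 and -1.22 without control-medium replicate 2.

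Ikbkg fell in alkaline medium to 87.8 and 84.8 CPM, against 101 and 99.7 CPM in control medium (log2 fold change -0.22 ± 0.05, adjusted p = 0.00272), and here G6pdx went the same way with 69.6 and 67.5 CPM in alkaline and 75.9 and 82.8 CPM in control medium. The kinase subunits were not called. Ikbkb had 46.8 and 47.7 CPM in alkaline and 43.9 and 44.7 CPM in control medium, and Chuk had 73.7 and 80.2 CPM in alkaline and 81.0 and 74.3 CPM in control medium. Among the adaptors Ripk2 fell to 64.7 and 65.5 CPM in alkaline, against 74.4 and 74.1 CPM in control medium (log2 fold change -0.20 ± 0.06, adjusted p = 0.0127). That call was lost without alkaline replicate 1 (0.0717), within a range of 0.00672 to 0.0717. Traf2 and Birc3 were not called at an adjusted p of 0.0844 and 0.0667, with log2 fold changes of -0.27 each. Both were called lower without control-medium replicate 2 (0.0141 for Traf2 and 0.0322 for Birc3), and Traf2 also without alkaline replicate 1 (0.00684). Over all alternatives the adjusted p ran from 0.00684 to 0.538 for Traf2 and from 0.0322 to 0.457 for Birc3. Birc2, Ltbr and Traf1 were not called. The feedback genes were not called either, and their log2 fold changes were -0.01 for Tnfaip3 (interval -0.21 to 0.20), 0.04 for Tnip1 (interval -0.10 to 0.18) and -0.05 for Zc3h12a (interval -0.29 to 0.18).

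Other genes of the pathway, a list of 58 receptors, adaptors, kinases and ubiquitin enzymes, were chosen with results of these data known, as was the list of targets that follows. Of 54 tested in n-Sen, 25 were called higher (46.3%, against 34.0% of all genes tested) and 7 lower (13%, against 33.1%), with a median log2 fold change of 0.21. The higher genes of smallest p were Tlr2 and Tlr4, receptors for bacterial lipoproteins and endotoxin, Tifa, an adaptor upstream of TRAF proteins, and Ikbke, an IKK-related kinase. Tlr2 had 10.8 and 10.4 CPM in n-Sen and 1.97 and 1.83 CPM in proliferating cells (log2 fold change 2.49 ± 0.17, adjusted p = 3.99e-10). For Tifa the log2 fold change was 2.73, for Ikbke 1.71 and for Tlr4 1.11. The interleukin-1 receptor Il1r1 was the clearest fall, with 9.90 and 9.15 CPM in n-Sen and 44.2 and 44.7 CPM in proliferating cells (log2 fold change -2.22 ± 0.09, adjusted p = 5.59e-13). Next by p among the 7 lower genes came Tbk1 (-0.28), Card10 (-0.62) and Tnfrsf11a (-0.40), of which the last was not called without n-Sen replicate 2 (adjusted p = 0.0627, range over all alternatives 0.00348 to 0.0627). Macrophages express Tlr2 and Tlr4 too, and the part of the macrophage markers was not tested.

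In alkaline medium 7 of 55 tested pathway genes were called higher (12.7%, against 9.58% of all genes tested) and 12 lower (21.8%, against 10.4%), with a median log2 fold change of -0.02. Irak2, a kinase of the interleukin-1 receptor complex, rose to 51.1 and 51.5 CPM in alkaline, against 34.9 and 33.2 CPM in control medium (log2 fold change 0.58 ± 0.07, adjusted p = 5.17e-07), and the receptor Cd40 rose to 6.96 and 7.75 CPM in alkaline, against 2.87 and 3.01 CPM in control medium (log2 fold change 1.31 ± 0.16, adjusted p = 2.02e-06). Tollip (0.25) and Card10 (0.73) followed by p among the higher genes. The lower genes of smallest p took in both chains of the interleukin-1 receptor. Il1r1 had 8.32 and 9.57 CPM in alkaline and 17.6 and 15.4 CPM in control medium (log2 fold change -0.89 ± 0.12, adjusted p = 4.02e-06), and Il1rap had 26.3 and 25.8 CPM in alkaline and 39.9 and 38.5 CPM in control medium (-0.60 ± 0.07, adjusted p = 1.55e-06). Tlr4 (-0.62) and Tnfrsf11a (-0.97) followed by p.

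The other list held 36 further target genes, again without cytokines. Of 32 tested in n-Sen, 17 were called higher (53.1%, against 34.0%) and 7 lower (21.9%, against 33.1%), with a median log2 fold change of 0.35. The higher genes of smallest p served protein quality control, survival and antigen presentation. They were Sqstm1, the autophagy receptor (log2 fold change 1.07), Cflar, an inhibitor of caspase activation (1.14), the peptide transporter Tap1 (2.87) and its partner Tapbp (1.44). The 4 of smallest p among the 7 that fell were the calmodulin-binding Marcksl1 (-1.82), the pentraxin Ptx3 (-1.70), the hyaluronan-binding Tnfaip6 (-2.94) and Junb (-0.39). Ptx3, a soluble pattern receptor, had 27.3 and 24.3 CPM in n-Sen and 84.0 and 84.3 CPM in proliferating cells. The macrophage markers rose in the same n-Sen libraries, and their part in the changes of this list was not tested.

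In alkaline medium 11 of 33 tested targets were called higher (33.3%, against 9.58%) and 7 lower (21.2%, against 10.4%), with a median log2 fold change of 0.11. Ptgs2, the inducible cyclooxygenase, had 1599 and 1670 CPM in alkaline and 972 and 989 CPM in control medium (log2 fold change 0.73 ± 0.04, adjusted p = 1.14e-12). Olr1, a scavenger receptor for oxidised lipoprotein, had 44.8 and 46.5 CPM in alkaline and 16.3 and 15.6 CPM in control medium (1.51 ± 0.08, adjusted p = 1.22e-12). Rnf19b (0.88) and the stress-response gene Ier3 (0.65) followed by p among the 11 higher genes. Plau, the urokinase protease, had 143 and 140 CPM in alkaline and 311 and 319 CPM in control medium (-1.16 ± 0.04, adjusted p = 8.57e-15). Ptx3 had 14.5 and 11.9 CPM in alkaline and 53.0 and 55.6 CPM in control medium (-2.05 ± 0.09, adjusted p = 4.45e-14). Serpina3n (-1.75) and Tnfaip8 (-0.60) followed by p among the 7 lower genes.

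**Figure D4:**
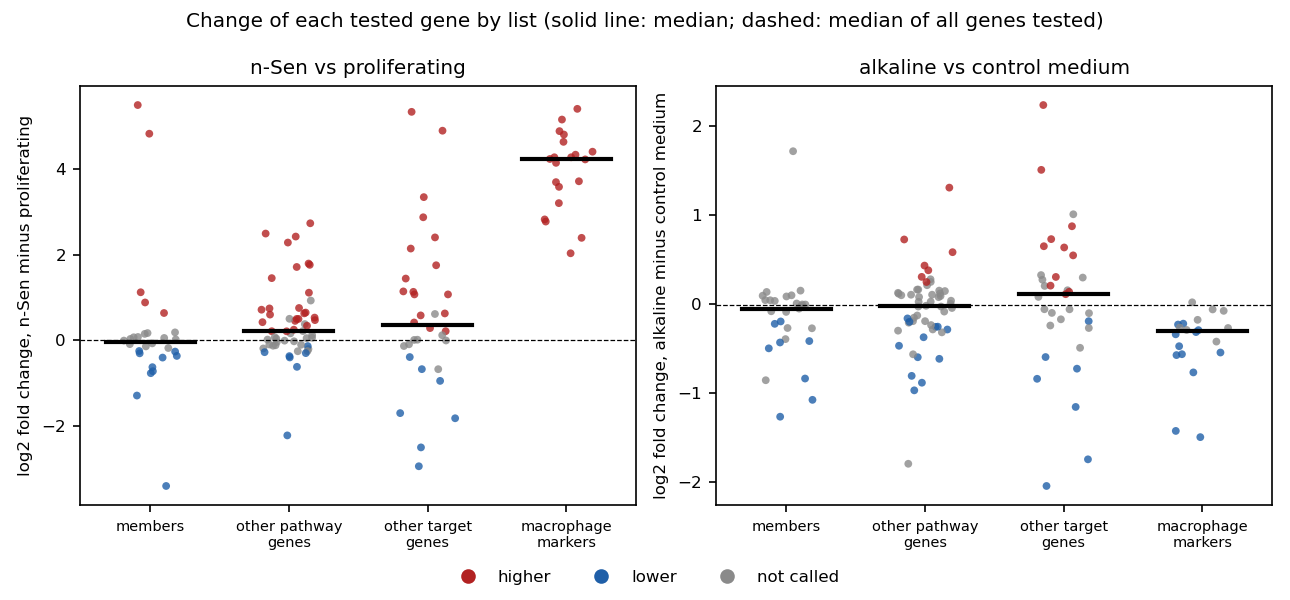
Log2 fold change (vertical axes) of each tested gene among the members, the other pathway genes, the other target genes and the macrophage markers, in n-Sen against proliferating cells on the left and in alkaline against control medium on the right, with a solid line at each list's median and a dashed line at the median of all genes tested. Cd83 is drawn at its lower bound in n-Sen cells, where the macrophage markers have the highest median at 4.22.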

How the data were processed

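Polyadenylated RNA of 8 libraries, 2 in each of 4 groups, was analysed. Per the labels' protocols, libraries were strand-marked with dUTP. The submitters' processing notes name build mm10 and the tools HISAT2 2.1.0, DESeq2 1.34.0, fastp 0.23.2 and, for counts, featureCounts (Subread 2.0.2). Neither the annotation release nor the use of strand in counting is given in the sources used here. The authors deposited expected counts (estimated counts that need not be whole) in 2 tables, which were rounded here. Symbols, coordinates and exon lengths came from GENCODE vM21 on GRCm38.

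Each comparison was fitted on its own 4 libraries in edgeR 4.0.16 (R 4.3.3) with filterByExpr, TMM scaling, the quasi-likelihood test and Benjamini-Hochberg adjustment over all genes tested, at 0.05. The SE is the absolute log2 fold change over the square root of F. The 95% intervals take that SE with a normal distribution, so they are somewhat narrower than the quasi-likelihood test itself would give. CPM and RPKM used TMM factors over all 8 libraries, and the floor for 0 counts was 3 counts over the group. The procedure was run on simulated counts in which few genes changed, as many up as down. Far more genes were called in n-Sen against proliferating cells, so the simulation does not bear on scaling or error rates there. Alternatives were median-of-ratios (RLE) scaling, total counts only, no low-count filter, counts rounded down, all 8 libraries in 1 fit, DESeq2 1.42.0, a replicate block and each library left out. Between libraries of a group the chi-square of the counts was 4.63 to 7.39 per degree of freedom, above sampling noise.

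The members and the gene lists were chosen with earlier results of these data known. All 30 members are named. Values of each library are given for those called past a log2 fold change of 1, for the subunits, inhibitors and IKK subunits, and for other members where a call is described. Of the other lists, up to 4 called genes of smallest p per direction are named. The kappa B consensus and the printed promoters were chosen after the simpler motifs had been searched.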

Additional observations from a re-analysis of the deposited data

How the results depend on the processing

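The counts of NF-kB members called higher and lower, and those of all genes called, were compared with the reported values under the alternatives. They stayed within 1.5 times of them, apart from the count of members higher in alkaline medium. That count was 0 in every alternative that kept 2 libraries a group. Saa3 was added to it only where the control-medium library left held 0 counts of Saa3. The median log2 fold change of the members in n-Sen against proliferating cells (-0.04) was -0.0912 with total counts only, -0.00946 with all 8 libraries in 1 fit, 0.0239 without the low-count filter and 0.0176 in DESeq2, and ran from -0.0594 to 0.0261 with each library left out, so its sign is not fixed. In alkaline against control medium the median (-0.0524) was -0.0689 with total counts only and -0.0721 without the low-count filter, and ran from -0.106 to -0.0783 with each library left out. No member reversed its call. Calls lost under an alternative were those of Rel and Traf2 in n-Sen cells and of Irf1, Cd83 and Ripk2 in alkaline medium. Those gained were Ripk2 and Nfkbib in n-Sen cells, with Nfkbib at an adjusted p of 0.0390 with total counts only (range 0.0390 to 0.378), and Bcl3, Traf2, Birc3 and Saa3 in alkaline medium. The causes were not tested. Libraries with the same replicate number did not deviate together, with correlations of -0.00305 and 0.00679. With a replicate block, 5 members were higher and 10 lower in n-Sen cells with 12726 genes called, and 0 higher and 11 lower in alkaline medium with 4310 genes called. The genes added by it were Bcl3 (0.0477), Traf2 (0.0314) and Birc3 (0.0477). With 2 libraries a group, small changes of genes with few counts, such as Bcl3, Traf1, Cd83 and Saa3, are not resolved.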

Other observations

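The n-Sen libraries and those of n-Sen cells in control medium come from different tables and media, so their levels are set side by side with no test. Icam1 stood at 46.6 and 49.3 CPM in n-Sen and at 60.0 and 64.0 CPM in control medium. Tnfaip2 was at 107 and 104 CPM in n-Sen and at 174 and 182 CPM in control medium, above the 139 and 140 CPM of proliferating cells. Relb, the partner of p52, was at 14.1 and 12.0 CPM in n-Sen and at 22.7 and 22.0 CPM in control medium. The A20 gene Tnfaip3 was at 9.26 and 9.02 CPM in n-Sen and at 14.1 and 15.8 CPM in control medium, and Birc3, a cIAP ligase, at 9.86 and 11.1 CPM in n-Sen and at 17.7 and 15.5 CPM in control medium. Other members lay the other way, with Ikbkg at 108 and 111 CPM in n-Sen and 101 and 99.7 CPM in control medium, and Ltbr at 84.5 and 89.9 CPM in n-Sen and 74.5 and 80.2 CPM in control medium. These 7 genes were chosen as examples after their values had been seen.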
